A study of Naumovozyma castellii with 14 samples.

Results

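The 51 protein-coding genes described here, of 5599 mRNAs in the deposited table of the budding yeast Naumovozyma castellii, were expressed at a higher level in cells without Upf1, and still so when both strains were treated with cycloheximide. They were chosen from group mean read densities by these values: a density of at least 0.05 in wild type, at least 3 times that density in upf1, and a density in cycloheximide-treated upf1 at least 2 times that in treated wild type. Of the 5599 mRNAs, 5101 met the first criterion, 303 of these the second and 58 of those the third. From the 58, 7 genes were excluded by name, which left 51. The comparisons of upf1 with wild type, untreated and treated, therefore made the choice and are given as a description, with no test.

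Nonsense-mediated decay (NMD) removes mRNAs on which a ribosome stops at a premature or otherwise unfavourable stop codon. Upf1, an RNA helicase encoded by NAM7 in yeast, is recruited to the stalled termination complex and leads to decapping and degradation of the mRNA from its 5′ end. In Saccharomyces cerevisiae the pathway acts not on faulty transcripts alone but also on normal mRNAs, among them some with upstream reading frames, long 3′ untranslated regions or a programmed frameshift. Cycloheximide blocks translation elongation, so a transcript whose decay needs translation is spared in wild type as well, and the difference between wild type and upf1 cells then narrows.

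Strand-specific sequencing of rRNA-depleted total RNA was carried out on 14 libraries in 5 groups. Every strain was MATalpha ura3-1 ho. WT carried no further change (strain YAM2478, 4 libraries), upf1 carried upf1::kanMX6 (YAM2890, 4 libraries) and dcr1 upf1 carried dcr1, a loss of the RNA interference nuclease Dicer, beside upf1::kanMX6 (YAM2943, 2 libraries), so each genotype was a single strain. Cells grew in YPD, a rich medium, at 25 °C to an OD600 of 0.5. For the WT CHX and upf1 CHX groups (2 libraries each), cycloheximide was present at 100 µg/mL for 15 min. Recovered reads per library ran from 7895089 to 11172687 in WT, 8022819 to 16411146 in upf1, 13509980 to 14220444 in WT CHX, 18994438 to 21111295 in upf1 CHX and 18457571 to 22437334 in dcr1 upf1. Nothing in the labels says that the libraries of a group came from separate cultures, so p-values measure the spread between these libraries.

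A density is the number of reads per base of a feature, which the authors put on a common scale with 1 factor per library. Under that scaling the 37 snoRNAs stayed level, with library factors within 0.04 on the log2 scale, whereas the factors over mRNAs ranged from −0.64 to 0.91. A change between treated and untreated cells is therefore relative to the snoRNAs, and a scaling by the mRNAs is given beside it where it matters. A single WT library held 7 to 719 reads per gene for the 51 genes, with a median of 144.5, and a single upf1 library held 83 to 7222. Counting error was thus largest in untreated WT. NAM7, the deleted gene, had a mean density of 0 in the 3 groups without Upf1.

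Replicates 3 and 4 of upf1 stood apart from 1 and 2. Both were above both of the others in 46 of the 51 genes, against 74.6% of the 5101 mRNAs, and the mean of replicates 3 and 4 was a median of 1.27 times that of 1 and 2. In WT the same order held in 17 of the 51, against 25.5%. Within replicates 1 and 2, the ratio of upf1 to WT ran from 3.27 to 13.2 with a median of 6.74. Within replicates 3 and 4 it ran from 2.91 to 15.0 with a median of 7.70. The labels name no batch, and no library of the WT CHX, upf1 CHX or dcr1 upf1 groups carries the number 3 or 4.

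The 51 genes were weakly expressed in WT, with mean densities from 0.0507 to 2.43 and a median of 0.127, against a median of 0.295 over the 5101 mRNAs. The 245 mRNAs that met the untreated ratio but not the treated one also had a median of 0.127. A ratio of at least 3 favours a low WT mean, so this level is not particular to the 51. In upf1 the 51 genes reached 0.264 to 16.0, with a median of 0.872. The ratio of upf1 to WT ran from 3.38 to 13.4 with a median of 7.24, and it was 10 or more for 6 genes. The ratio of upf1 CHX to WT CHX ran from 2.01 to 5.02 with a median of 2.23. It lay below 2.2 for 24 of the 51 genes, and reached 3 for NCAS_0G02790, NCAS_0J02330, DAL3 and REC107. On the log2 scale, cycloheximide left between 32.6% and 69.2% of each gene's untreated difference, with a median of 41.8%. In the other 245 mRNAs that were at least 3-fold higher in upf1 but missed the criterion under cycloheximide, the median left was 29.6%. That lower value follows from the criterion itself.

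**Figure D1:**
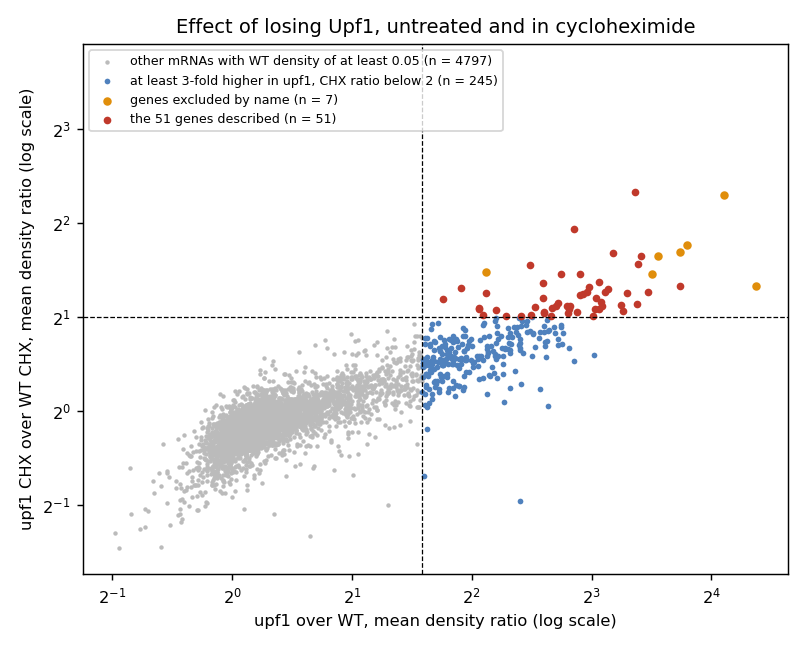
Each point is an mRNA with a WT density of at least 0.05. The horizontal axis gives the ratio of mean densities of upf1 to WT and the vertical axis that of upf1 CHX to WT CHX, both on log scales, with the thresholds of 3 and 2 as dashed lines. NAM7, which has no reads without Upf1, is not drawn. No point lies above the upper line and left of the vertical one, since all 58 mRNAs with a treated ratio of at least 2 also exceeded 3 untreated.

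Every one of the 58 mRNAs with a WT density of at least 0.05 and a treated ratio of at least 2 was also at least 3-fold higher without treatment, so the untreated criterion removed 0 genes. The WT floor mattered more, since 19 further mRNAs met both ratios below it. Just above the floor lay DAL3 at 0.0507, DAL5 at 0.0528 and NCAS_0A07310 at 0.0570. Just below it lay NCAS_0E03970 at 0.0493, NCAS_0B07880 at 0.0446 and NCAS_0B07890 at 0.0442. At the treated ratio, HFM1 at 2.01, NCAS_0B00350 at 2.01 and NCAS_0D01590 at 2.02 fell inside, while SWC7 at 1.99, MET16 at 1.98 and AAC1 at 1.98 fell outside. The lowest untreated ratios inside were those of NCAS_0A09100 at 3.38, NCAS_0H01020 at 3.77 and NCAS_0G04050 at 4.17. Leaving out a treated library moved the count, and 33 genes met the rule without upf1 CHX replicate 1 and 67 without upf1 CHX replicate 2. Whichever single library was left out, 30 of the 51 genes stayed inside.

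RefSeq gives a symbol to 21 of the 51 genes (41.2%), against 83.5% of the 5101 mRNAs and 59.6% of the 245. All 21 are named here for that reason, beyond the genes that the naming rule takes. Their roles are those known from S. cerevisiae. By role, 6 belong to meiosis and spore formation, 8 to nitrogen and amino acid use and 7 to other processes. Roles were assigned to these 21 genes alone, so the counts have no background share beside them. The remaining 30 carry a systematic name alone.

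The 6 meiosis and sporulation genes were REC107, SPO22, MSH4, HFM1, DIT1 and SPS100. Their mean density in WT lay between 0.0620 and 0.0903 and in upf1 between 0.479 and 0.660. Ratios of upf1 to WT ran from 5.31 for HFM1 to 10.6 for REC107. In bulk RNA, a few cells with much of a transcript and many cells with little of it cannot be told apart.

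REC107 (NCAS_0D01700, chromosome 4, 320643 to 321689, plus strand) encodes a protein needed to form the DNA breaks that start meiotic recombination. Its densities were 0.0685, 0.0611, 0.0575 and 0.0608 in WT and 0.589, 0.619, 0.702 and 0.730 in upf1. They were 0.228 and 0.248 in WT CHX, 0.796 and 0.695 in upf1 CHX, and 0.522 and 0.618 in dcr1 upf1. Each library without Upf1 lay above each library with it, treated or not, and the treated ratio was 3.13. SPO22, whose product stabilises meiotic crossover intermediates, read 0.0883, 0.0709, 0.05001 and 0.0611 in WT and 0.494, 0.498, 0.700 and 0.567 in upf1. It read 0.227 and 0.220 in WT CHX, 0.617 and 0.542 in upf1 CHX, and 0.463 and 0.511 in dcr1 upf1. Treatment of WT thus brought SPO22 to 39.6% of its mean level in upf1.

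DIT1 makes a precursor of the dityrosine layer of the spore wall, and SPS100 encodes a protein of the spore wall. DIT1 read 0.0991, 0.0706, 0.0551 and 0.0743 in WT and 0.581, 0.564, 0.682 and 0.615 in upf1. It read 0.414 and 0.417 in WT CHX, 0.918 and 0.847 in upf1 CHX, and 0.533 and 0.535 in dcr1 upf1. Treated WT lay between untreated WT and upf1 with no overlap, and both treated upf1 libraries lay above the 4 untreated ones. SPS100 read 0.0964, 0.0592, 0.0617 and 0.0611 in WT and 0.561, 0.579, 0.585 and 0.642 in upf1. It read 0.404 and 0.458 in WT CHX, 1.01 and 0.853 in upf1 CHX, and 0.539 and 0.593 in dcr1 upf1. WT replicate 1 stood above the other three WT libraries. MSH4, a meiotic relative of mismatch repair proteins, averaged 0.0746 ± 0.0116 (SD, n = 4) in WT and 0.486 ± 0.0773 in upf1. HFM1, a helicase of meiotic crossing over, averaged 0.0903 ± 0.0123 (SD, n = 4) and 0.479 ± 0.0744.

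The 8 nitrogen and amino acid genes included 4 of the allantoin pathway, through which S. cerevisiae uses purine breakdown products as a nitrogen source. DAL5 encodes the allantoate permease, DAL1 allantoinase, DAL3 the enzyme that cleaves ureidoglycolate and DAL7 a malate synthase. DAL5 (NCAS_0F04040, chromosome 6, 806741 to 808423, plus strand) read 0.0558, 0.0539, 0.0294 and 0.0721 in WT and 0.497, 0.498, 0.660 and 0.554 in upf1. It read 0.221 and 0.268 in WT CHX, 0.759 and 0.686 in upf1 CHX, and 0.481 and 0.526 in dcr1 upf1. The upf1 and dcr1 upf1 libraries overlapped, and all of them lay above treated WT.

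DAL3, DAL7 and DAL1 lie within one stretch of chromosome 4, together with YCT1, which encodes a cysteine transporter. YCT1 spans 936177 to 937829 (minus strand), DAL3 938775 to 939383 (plus), DAL7 939854 to 941530 (plus) and DAL1 942832 to 944319 (minus). DAL3 read 0.0416, 0.0440, 0.0461 and 0.0710 in WT and 0.396, 0.427, 0.542 and 0.472 in upf1. It read 0.181 and 0.252 in WT CHX, 0.699 and 0.691 in upf1 CHX, and 0.343 and 0.401 in dcr1 upf1. A WT library held no more than 36 DAL3 reads, so the ratio of 9.06 rests on few counts. DAL7 read 0.108, 0.0787, 0.0925 and 0.125 in WT and 0.790, 0.686, 1.06 and 0.947 in upf1. It read 0.429 and 0.413 in WT CHX, 1.06 and 0.969 in upf1 CHX, and 0.687 and 0.729 in dcr1 upf1. DAL7 in treated WT was at 48.3% of its mean level in upf1. DAL1 read 0.0652, 0.0520, 0.0503 and 0.0703 in WT and 0.359, 0.324, 0.541 and 0.422 in upf1. It read 0.192 and 0.236 in WT CHX, 0.466 and 0.461 in upf1 CHX, and 0.325 and 0.342 in dcr1 upf1. For DAL1 the treated and untreated upf1 libraries overlapped.

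The neighbours of these genes did not share one pattern. DCG1, between DAL7 and DAL1, had a mean of 0.0188 in WT, below the floor, and 0.0342 in upf1, but 0.140 in WT CHX and 0.168 in upf1 CHX. DAL4 and DAL2, the allantoin permease and allantoicase genes, had mean densities of 0.0015 and 0.0048 in upf1. Both were far below the floor in WT, at 0.00087 and 0.00030. The ratios of DAL2 were 16.2 untreated and 2.87 treated, and those of DAL4 were 1.77 and 0.896. At such low densities these ratios are uncertain. XUT0603, a non-coding transcript on the strand of DAL1 that ends 580 bases before the DAL1 start, read 0.0432 ± 0.00780 in WT and 0.354 ± 0.0451 in upf1 (SD, n = 4). Its treated means were 0.156 and 0.420. XUT0603 lies opposite DAL4, whose density in upf1 was 0.0015, so reads of the 2 strands were kept apart at this site. NCAS_0D04860, on the other side of YCT1, was 4.19-fold higher in upf1 but 1.69-fold higher under treatment and so is one of the 245.

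**Figure D2:**
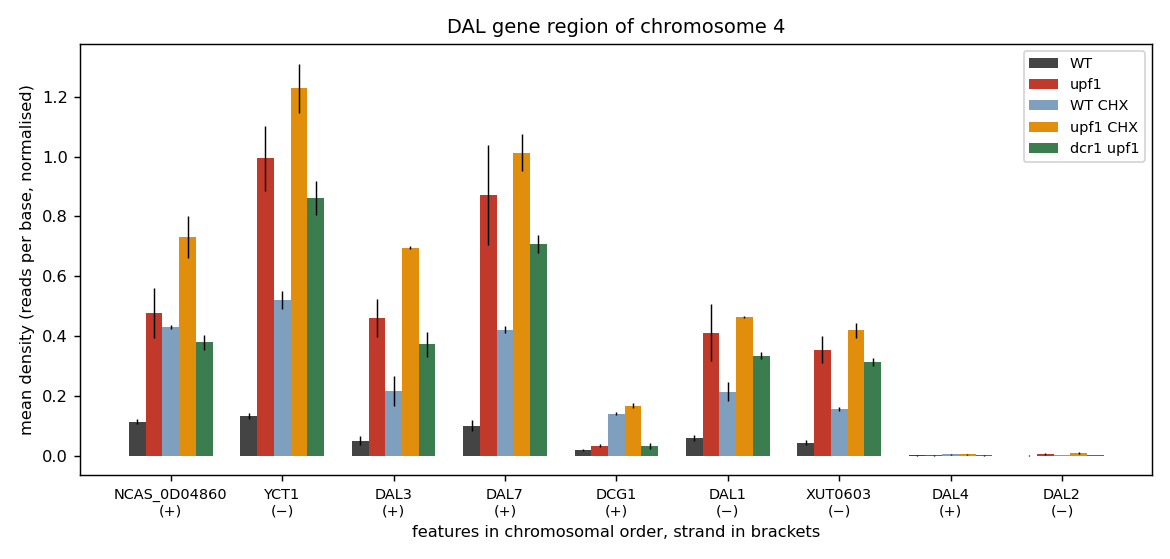
Mean density (bars) and SD (lines; n = 4 for WT and upf1, n = 2 for the others) of each mRNA and of XUT0603 in the DAL gene region of chromosome 4, in chromosomal order with the strand in brackets. YCT1, DAL3, DAL7, DAL1 and XUT0603 share low WT bars and high bars in the 3 groups without Upf1, whereas DCG1 is higher in both treated groups.

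The other members of this set were AMD2, an amidase gene, GUD1, which encodes guanine deaminase, and ARG8, an arginine biosynthesis gene. Their upf1 to WT ratios were 6.07, 5.76 and 4.27, and their treated ratios 2.06, 2.16 and 2.03. YCT1 was at 0.133 ± 0.0108 in WT and 0.994 ± 0.108 in upf1 (SD, n = 4), and ARG8 at 0.394 ± 0.0678 and 1.68 ± 0.377.

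Of the 7 genes with other roles, MAK31 had the highest upf1 to WT ratio of the 51 genes, 13.4. It encodes a subunit of an N-terminal acetyltransferase. MAK31 (NCAS_0A08500, chromosome 1, 1681212 to 1681514, minus strand) read 0.244, 0.201, 0.234 and 0.222 in WT and 2.54, 2.68, 3.62 and 3.20 in upf1. It read 1.42 and 1.40 in WT CHX, 3.73 and 3.34 in upf1 CHX, and 2.38 and 2.75 in dcr1 upf1. The WT libraries, treated or not, formed groups well apart from those without Upf1.

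LSO1, a gene for a small protein, had the highest density of the 51 in every group. It read 2.63, 2.11, 2.30 and 2.69 in WT and 10.2, 9.58, 22.8 and 21.5 in upf1. It read 6.29 and 5.87 in WT CHX, 14.1 and 12.9 in upf1 CHX, and 9.48 and 11.1 in dcr1 upf1. Untreated upf1 replicates 3 and 4 lay more than 2-fold above replicates 1 and 2. The upf1 to WT ratio of LSO1 was accordingly 4.17 within replicates 1 and 2 and 8.89 within replicates 3 and 4.

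EST3 encodes a telomerase subunit whose mRNA in S. cerevisiae needs a ribosomal frameshift to be read in full. Its annotated length of 559 bases makes it the 1 gene among the 51 whose length is not a multiple of 3. Lengths were a multiple of 3 for 98.0% of the 51 and for 97.6% of the 5101 mRNAs, so the 2 shares are close. EST3 read 0.194, 0.205, 0.218 and 0.215 in WT and 0.814, 0.928, 1.21 and 1.11 in upf1. It read 0.756 and 0.744 in WT CHX, 1.60 and 1.43 in upf1 CHX, and 0.863 and 0.946 in dcr1 upf1. EST3 in treated WT stood at 73.9% of its upf1 mean, a higher share than the median of 55.5% over the 51 genes.

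AFR1 acts on pheromone receptor signalling and on the shape of the mating projection. It read 0.162, 0.143, 0.149 and 0.210 in WT and 0.999, 0.986, 1.29 and 1.17 in upf1. It read 0.341 and 0.355 in WT CHX, 1.03 and 0.887 in upf1 CHX, and 0.856 and 0.969 in dcr1 upf1. Treated WT reached 31.3% of the upf1 mean. ACA1, a bZIP transcription factor gene, lay at the other end, at 85.3%. It read 0.0660, 0.0561, 0.0878 and 0.104 in WT and 0.334, 0.317, 0.317 and 0.339 in upf1. It read 0.272 and 0.286 in WT CHX, 0.633 and 0.552 in upf1 CHX, and 0.309 and 0.363 in dcr1 upf1. SGN1, an RNA-binding protein gene, and REV3, the catalytic subunit of DNA polymerase zeta, had upf1 to WT ratios of 8.19 and 5.65.

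The 30 genes without a symbol spanned nearly the whole range of the set, with upf1 to WT ratios from 3.38 to 11.1 and treated ratios from 2.01 to 5.02. NCAS_0G02790 (chromosome 7, 508184 to 511636, plus strand) had the highest treated ratio. It read 0.112, 0.101, 0.215 and 0.226 in WT and 1.501, 1.30, 1.87 and 2.06 in upf1. It read 0.474 and 0.462 in WT CHX, 2.58 and 2.12 in upf1 CHX, and 1.51 and 1.58 in dcr1 upf1. WT replicates 3 and 4 were higher than 1 and 2, and treated WT reached 27.9% of the upf1 mean, the lowest share of the 51. The next member along the chromosome is NCAS_0G02800, with ratios of 7.47 untreated and 2.74 treated.

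NCAS_0J02330 and NCAS_0J02320 form another pair of neighbours, on chromosome 10. NCAS_0J02330 read 0.0822, 0.0591, 0.170 and 0.197 in WT and 0.657, 0.586, 1.08 and 1.35 in upf1. It read 0.364 and 0.373 in WT CHX, 1.56 and 1.27 in upf1 CHX, and 0.742 and 0.663 in dcr1 upf1. Replicates 3 and 4 were above 1 and 2 in both genotypes, and the ratio was 8.80 in the first pair and 6.63 in the second. No sequence was used here, so whether neighbouring genes are near-identical copies that share reads was not tested.

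NCAS_0H01020 and NCAS_0B07140, both short, lay at opposite ends of the response to cycloheximide. NCAS_0H01020 read 0.546, 0.465, 0.495 and 0.533 in WT and 1.72, 1.62, 2.38 and 1.95 in upf1. It read 0.744 and 0.925 in WT CHX, 2.00 and 2.15 in upf1 CHX, and 1.35 and 1.43 in dcr1 upf1. Treatment moved its WT mean 1.64-fold, the smallest ratio of the 51. NCAS_0B07140, 105 bases long, read 0.291, 0.177, 0.0892 and 0.172 in WT and 1.44, 1.69, 1.77 and 1.26 in upf1. It read 1.47 and 1.31 in WT CHX, 3.42 and 2.81 in upf1 CHX, and 1.70 and 1.90 in dcr1 upf1. Its WT values rest on 7 to 29 reads per library. Treated WT overlapped untreated upf1 for this gene, the 1 such case among the 51.

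**Figure D3:**
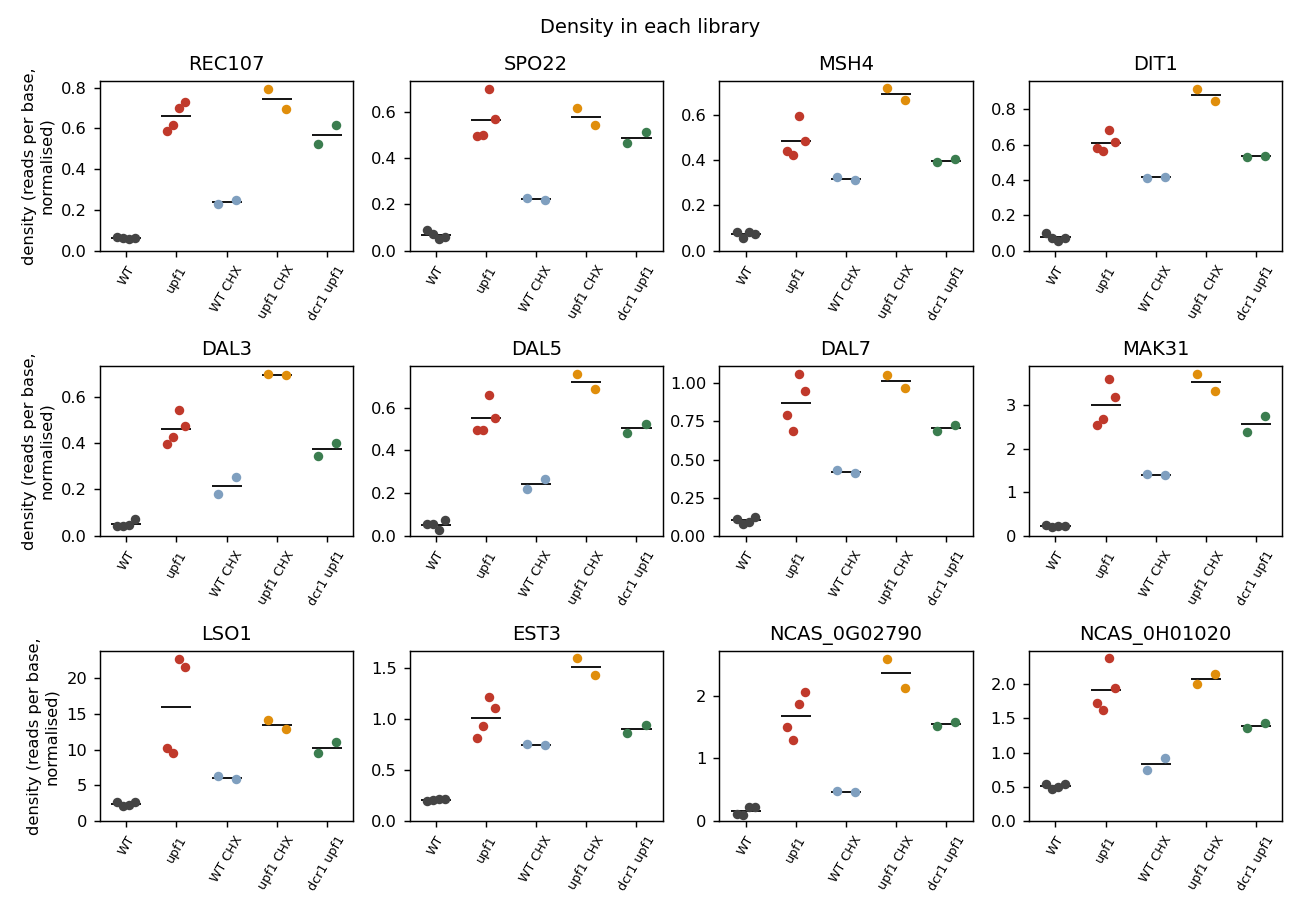
Density (reads per base, normalised; linear axes from 0) of 12 of the 51 genes in each library. Points are libraries in replicate order, horizontal lines are group means. WT is lowest in every panel, WT CHX lies between WT and upf1, and LSO1 shows the split of upf1 replicates 3 and 4 from 1 and 2.

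Untreated upf1 libraries exceeded both treated WT libraries in 50 of the 51 genes. The same order was met by 2.92% of the 5101 mRNAs and by 73 of the 245. Treated WT had the lower mean in all 51 genes, at 27.9% to 90.3% of untreated upf1 with a median of 55.5%. Over the 5101 mRNAs the median was 204%, and 260 had the lower mean in treated WT. The criterion on the treated ratio favours genes low in treated WT, so these counts describe the choice.

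Cycloheximide raised all 51 genes in WT (limma on log2 of density plus 0.02, Benjamini-Hochberg adjusted p under 0.05 over 7518 features), but 94.1% of all features rose as well, and 0.146% fell. Both treated libraries exceeded the 4 untreated ones in 51 of 51 genes and in 99.0% of the 5101 mRNAs. The median change of the 51 was 1.82 on the log2 scale against 1.35 for the 5446 tested mRNAs, a difference of 0.47. The 245 had a median of 1.78, close to that of the 51. Scaled by the mRNAs, the 51 genes stood at a median of 0.55, the 245 at 0.53 and the tested mRNAs at 0.07. Of the 51, 37 rose and 2 fell, beside 35.3% and 20.3% of all features. The rule used both groups, in other ratios. Its untreated criterion favours a low WT mean, which raises this change, and its treated one a low WT CHX mean, which lowers it. Counts, changes and p-values in WT are therefore a description of the chosen genes, and nothing is read from their distance to the background. The 4 genes with the largest change were NCAS_0B07140 at 2.89 (SE 0.30), MAK31 at 2.54 (SE 0.14), NCAS_0D01620 at 2.48 (SE 0.13) and NCAS_0A03410 at 2.46 (SE 0.16). The 4 with the smallest were NCAS_0H01020 at 0.68 (SE 0.15), NCAS_0B04430 at 0.96 (SE 0.18), AFR1 at 1.00 (SE 0.15) and NCAS_0A05020 at 1.07 (SE 0.18). Adjusted p-values from limma were at most 0.000312 for these 8. Under the mRNA scaling the last 4 turned below 0, and NCAS_0H01020 and AFR1 then fell.

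In upf1 cells cycloheximide raised 25 of the 51 genes, against 84.4% of all features, and lowered 0, against 0.239%. The rule took genes with a high untreated upf1 mean, which lowers this change by construction, and it used the treated upf1 libraries too. The counts, changes and p-values in upf1 are therefore a description of the chosen genes, and nothing is read from their distance to the background. Among the 245, which share the high untreated mean, 190 were called higher and the median change was 0.52. The median change of the 51 was 0.38 on the log2 scale, beside 0.86 for tested mRNAs. NCAS_0B07140 changed by 1.01 (SE 0.30, limma adjusted p 0.00712), ACA1 by 0.82 (SE 0.16, limma adjusted p 0.000238) and SPS100 by 0.64 (SE 0.15, limma adjusted p 0.00116). AFR1 gave −0.21 (SE 0.15, limma adjusted p 0.214), which did not pass. Both treated libraries exceeded the 4 untreated ones in 26 of the 51 genes, against 92.0% of the 5101 mRNAs. The count of 25 depended on the settings: it was 10 without upf1 CHX replicate 1, 38 with the replicate number as a block and 48 within replicates 1 and 2. Scaled by the mRNAs, 0 rose and 42 of the 51 fell, beside 18.4% and 25.3% of all features.

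The dcr1 upf1 strain was not used by the rule. All 51 genes were higher there than in WT (limma, adjusted p under 0.05), against 28.8% of all features, while 0 were lower, against 3.29%. The count was also 51 within replicates 1 and 2. The 245 gave the same picture, with 245 of 245 higher, so a higher level in dcr1 upf1 is not particular to the 51. The median change was 2.44 on the log2 scale, with a range of 1.42 to 3.40, beside 1.62 for the 245 and 0.06 for the tested mRNAs. MAK31 changed by 3.40 (SE 0.14), NCAS_0G02790 by 3.17 (SE 0.27), DAL5 by 2.88 (SE 0.19), REC107 by 2.85 (SE 0.13) and SPO22 by 2.55 (SE 0.17). LSO1 changed by 2.08 (SE 0.32), EST3 by 2.02 (SE 0.14) and NCAS_0H01020 by 1.42 (SE 0.15). Limma adjusted p-values for these 8 were at most 0.000253. Each dcr1 upf1 library exceeded each WT library in 51 of 51 genes and in 245 of the 245, compared with 29.4% of the 5101 mRNAs. The WT libraries are those that the rule used, so this repeats the low WT side and is new on the side of dcr1 upf1.

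Loss of Dicer in addition to Upf1 gave no call in any of the 51 genes. Against upf1, 0 were higher and 0 lower with limma, beside 0.333% and 0.173% of all features, and voom on the recovered reads also gave 0. At an unadjusted p under 0.05, limma gave 0 higher and 5 lower. That count of 5 was 16 without upf1 replicate 2, 12 without upf1 replicate 1, 1 without upf1 replicate 3 or without upf1 replicate 4, 2 without dcr1 upf1 replicate 2 and 0 without dcr1 upf1 replicate 1. It was 8 with voom, 2 within replicates 1 and 2 and 1 with the replicate block. The median change was −0.22 on the log2 scale against −0.20 for the mRNAs, and −0.08 when upf1 was limited to replicates 1 and 2. The adjusted p was 0.395 or more for each gene, and standard errors in this fit ran from 0.12 to 0.42, so a modest change would not have been detectable. In 21 of the 51 genes all upf1 libraries lay above both dcr1 upf1 libraries, beside 31.0% of the 5101 mRNAs and 86 of the 245. High upf1 values were part of the choice, so these orders and the lower side of the unadjusted count lean that way by construction. The reverse held in 0 of the 51 and in 1.49% of the mRNAs. Both upf1 CHX libraries exceeded both dcr1 upf1 libraries in 49 of the 51 genes and in 98.6% of the mRNAs.

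**Figure D4:**
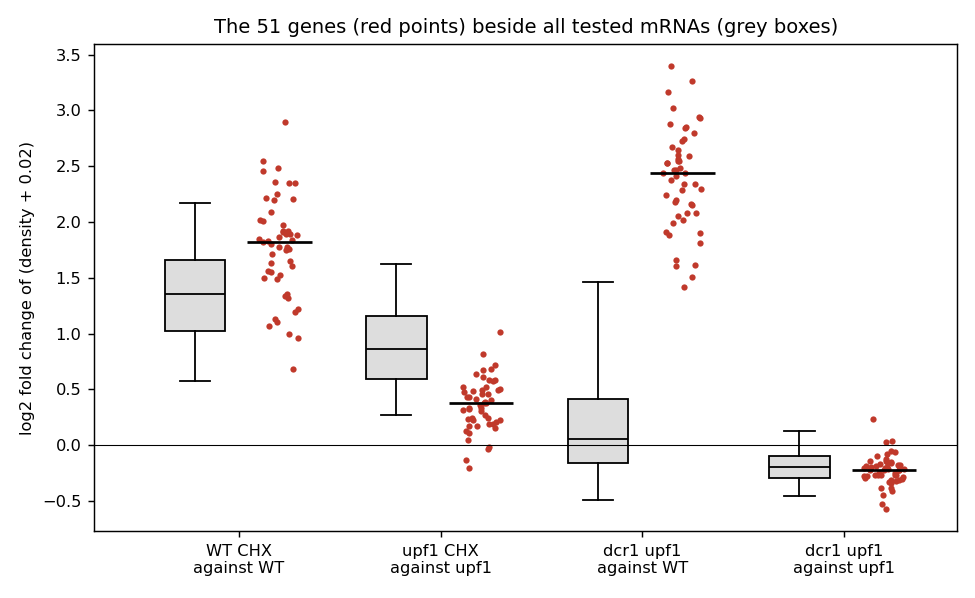
Log2 fold changes of density plus 0.02 in the 4 tested comparisons. Grey boxes show all 5446 tested mRNAs (box from the lower to the upper quartile, whiskers from the 5th to the 95th percentile), red points the 51 genes and black lines their medians. The 51 genes lie around 2.44 in dcr1 upf1 against WT and near the mRNAs in dcr1 upf1 against upf1.

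The position of the genes was not used by the rule. Of the 51, 10 (19.6%) lay within 20000 bases of the chromosome start or of the last annotated feature, against 2.82% of the 5101 mRNAs and 7.35% of the 245. These were GUD1, DAL3, DAL7, DAL1, DAL5, NCAS_0F04070, NCAS_0J02320, NCAS_0J02330, NCAS_0H03640 and NCAS_0E04200. Several of them are neighbours, so the 10 are not separate places, and 7 of the 51 genes lie directly beside another. The distance to the next gene upstream had a median of 956 bases, against 394 over the 5101 mRNAs and 422.5 over the 245. A gene on the same strand ended less than 500 bases upstream for 5 of the 51 (9.80%), compared with 33.0% and 30.2%. The length had a median of 1302 bases, with a range of 105 to 4422, beside a median of 1254 over the 5101 mRNAs. These shares are descriptions with no test.

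**Figure D5:**
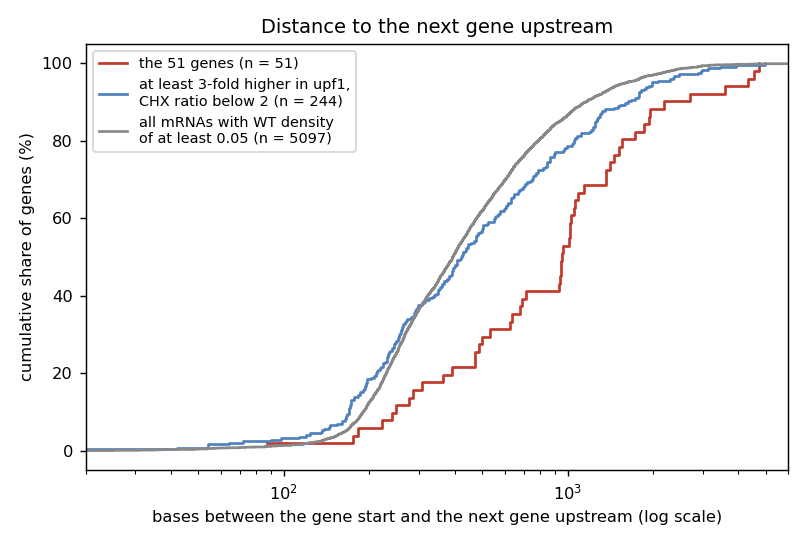
Cumulative share of genes (vertical axis, %) by the distance in bases to the next gene upstream (horizontal axis, log scale). The curve of the 51 genes lies to the right of the other curves, with medians of 956 bases against 422.5 and 394.

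An annotated CUT, XUT or SUT, which are classes of non-coding transcripts, lay opposite 11 of the 51 genes (21.6%), close to the 21.2% of the 5101 mRNAs. In all, 16 such transcripts overlapped the 11 genes. Each of the 16 had a lower mean density than its gene in upf1, and 0 lay above their gene in WT. High upf1 values were part of the choice, so the order in upf1 leans that way by construction. No share over other genes is given beside it. CUT0839, which covers all of ACA1, was the nearest to its gene, with 0.103 in upf1 beside 0.327 for ACA1. In WT it had 0.0431 beside 0.0783 for ACA1. The others included XUT0341 opposite NCAS_0B04430 at 0.0191 and CUT0714 opposite REC107 at 0.00222. CUT0195, opposite MAK31, had 0.0374.

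Other genes of the pathway were compared between upf1 CHX and WT CHX, leaving out those that meet the thresholds. The background in this comparison was 4.27% of features higher and 0.984% lower. It covers all features tested, so it keeps the genes that meet the thresholds, which the lists leave out. Of 6 genes for NMD factors, NAM7 was lower, as the deleted gene, and 0 were higher with limma and with voom, with 1 higher at an unadjusted p under 0.05. The count higher was 1 under mRNA-ratio scaling, with the compared groups alone, within replicates 1 and 2 and with the replicate block. NMD4, a cofactor of Upf1, gave 0.49 (SE 0.21, limma adjusted p 0.227). Of 16 genes for decapping and 5′ decay, 0 were higher and 0 lower with limma and with voom, and 1 was higher at an unadjusted p under 0.05. With the compared groups alone, 1 was higher and 1 lower, and within replicates 1 and 2, 1 was higher. Their median was −0.12 on the log2 scale, beside −0.13 for all tested mRNAs.

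Among 12 further genes known as NMD targets in S. cerevisiae, 3 were higher under cycloheximide and 0 lower. The median was 0.30 on the log2 scale. EST1 and EST2, which encode the other telomerase proteins, gave 0.81 (SE 0.17, limma adjusted p 0.00696) and 0.70 (SE 0.16, limma adjusted p 0.0117). REV7, the partner of REV3 in DNA polymerase zeta, gave 0.59 (SE 0.15, limma adjusted p 0.0328). Without WT CHX replicate 2, or without upf1 CHX replicate 1, the count was 0, and it was 1 without WT CHX replicate 1. It was 6 under mRNA-ratio scaling, with the compared groups alone and within replicates 1 and 2, and 5 with the replicate block. A list of 12 telomere genes gave 2 higher, which are EST1 and EST2 again. It gave 1 without WT CHX replicate 1, and 0 without WT CHX replicate 2 or without upf1 CHX replicate 1.

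Of 64 listed meiosis and sporulation symbols, 56 were found, and 6 of these met the thresholds and were left out. They are not the same 6 as the meiosis and sporulation genes described above. REC107, SPO22, MSH4 and DIT1 are on the list, HFM1 and SPS100 are not, and the others left out are genes excluded by name. Of the listed genes not left out, only the 34 with a mean density of at least 0.02 were tested. Among these 34 genes, 3 were higher and 1 was lower. Their median was 0.22 on the log2 scale. ADY3, needed for the prospore membrane, gave 1.13 (SE 0.21, limma adjusted p 0.00309). HOP2, needed for pairing of homologous chromosomes, gave 1.01 (SE 0.23, limma adjusted p 0.0151). SPS19, an enzyme gene of sporulation, gave 0.71 (SE 0.20, limma adjusted p 0.0435), and SPO24 gave −0.64 (SE 0.18, limma adjusted p 0.0498). The number higher was 0 without upf1 CHX replicate 1 and 1 when any of the other 3 treated libraries was left out. It was 1 at a pseudocount of 0.005, 5 at 0.1, 6 under mRNA-ratio scaling and with the compared groups alone, and 7 within replicates 1 and 2. Voom gave 4 higher and 2 lower.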

How the data were processed

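The authors deposited a density per feature (a signal in reads per base, normalised) for each of 14 libraries, and the mean of each group. The submitters' processing notes name DESeq2, featureCounts 2.0.0, HISAT2 2.2.0 and Trim Galore, without saying what each did, and no build is named. ERCC spike-ins went into each sample per the labels' protocols and were not analysed here. Density times length was a whole number of steps in each library (within 0.001 reads), which gave the reads. Of 8602 lines, 259 repeat a feature, which left 8343. Names come from the RefSeq table of assembly ASM23734v1, which holds all 51 genes.

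The members, lists and tests were chosen with earlier results of these data known. Genes named are the extremes of each ratio, those nearest a threshold, neighbours, list members and all with a symbol. The list of documented NMD targets and the meiosis list are by S. cerevisiae symbol. Tests used limma 3.58.1 in R 4.3.3 on log2(density + 0.02), which understates changes of low genes. All 14 libraries entered 1 model of 5 group means with trended, robust eBayes. Features with a mean density of at least 0.02 were tested (7518, including all 51), with Benjamini-Hochberg adjustment. Alternatives were other pseudocounts and filters, scaling by mRNA ratios, replicates 1 and 2, the compared groups alone, each library left out in turn and the replicate block. Voom was added after the data were seen. The procedure was run on simulated counts with known changes. These held no split of replicates 1 and 2 from 3 and 4, so the run says nothing about counts that the split moves. Same-numbered WT and upf1 libraries deviated together (correlations 0.365, 0.432, 0.209 and 0.354). The main model did not pair libraries, and the replicate number entered a model only in the replicate block alternative. WT 1 correlated better with upf1 2 (0.400), WT 3 with upf1 4 (0.264) and WT 4 with upf1 3 (0.489), so pairs by number are not shown apart from the split of replicates 1 and 2 from 3 and 4.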

Additional observations from a re-analysis of the deposited data

Results flagged for a closer look

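In 34 groups of 4 libraries (17 genes with printed values, in WT and upf1), 2 held a library far from the other 3, and chance alone flags about 1 group in 20. SPS100 in WT replicate 1 was at 0.0964, against 0.0592 to 0.0617 in the others. DAL3 in WT replicate 4 was at 0.0710, against 0.0416 to 0.0461. No WT library held more than 97 reads of SPS100 or 36 of DAL3.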

How the results depend on the processing

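The counts of genes higher in WT CHX than WT (51), higher in dcr1 upf1 than WT (51) and changed in dcr1 upf1 against upf1 (0) stayed within 1.5 times under each alternative run. Inside that range, the first count still moved with the scaling. It dropped from 51 to 37 once libraries were scaled by the mRNAs, and 2 genes were then called lower in WT CHX. The other counts moved beyond that range, and the causes were not tested. Of the 51 genes, 25 were higher in upf1 CHX than upf1, but 0 under mRNA-ratio scaling, 48 within replicates 1 and 2, 38 with the replicate block, and 10 to 32 when leaving out a library. The rule found 62 genes under mRNA-ratio scaling, of which 49 were among the 51 and 13 were new. It found 33 genes with a WT floor of 0.1, 12 with a treated ratio of at least 2.5, and 33 to 67 when leaving out a library. Higher in upf1 CHX than WT CHX, NMD factors numbered 1 rather than 0 under mRNA-ratio scaling, the compared groups alone, replicates 1 and 2, and the replicate block. Decapping genes numbered 1 rather than 0 with the compared groups alone and within replicates 1 and 2. The S. cerevisiae NMD targets numbered 6 under mRNA-ratio scaling, with the compared groups alone and within replicates 1 and 2, 5 with the replicate block, and 0 to 2 when leaving out a library. Meiosis and sporulation genes numbered 1 at a pseudocount of 0.005, 5 at 0.1, 6 under mRNA-ratio scaling and with the compared groups alone, 7 within replicates 1 and 2, and 0 to 1 when leaving out a library. Telomere genes numbered 0 to 2 when leaving out a library.

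Under mRNA-ratio scaling the sign turned for NCAS_0H01020 (−0.64), NCAS_0B04430 (−0.25), AFR1 (−0.26) and NCAS_0A05020 (−0.16) in WT CHX against WT. It turned for ACA1 (−0.12) and SPS100 (−0.31) in upf1 CHX against upf1. Only named genes with a compared fold change are listed here. Over all 51 genes, upf1 CHX against upf1 had a median of −0.59 under this scaling, with a highest value of 0.04. The median in the main fit was 0.38. Of 390 fold changes of named genes under alternatives, 354 kept their direction and their side of the threshold. The planned edgeR test was not run, since the deposited densities are divided by length, and voom took its place. Depth limits untreated WT most, where a gene could rest on as few as 7 reads.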
